A study of Mus musculus with 6 samples.

Results

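The genes described are 7 oncofetal genes of 3 families, the IGF2 mRNA-binding proteins Igf2bp1, Igf2bp2 and Igf2bp3, the let-7 inhibitors Lin28a and Lin28b, and the chromatin proteins Hmga1 and Hmga2. They were picked by symbol from the 27179 Entrez gene identifiers of the count files, and the set was chosen because Igf2bp3 is among the strongest gains in TETact-v3 cells, so that its difference from wild type is described without a test. The cells were A20, a mouse B cell lymphoma line from the BALB/c strain. RNA-seq covered 3 groups of 2 replicates. The wild-type group was A20 that had received no part of the system. The control sgRNA group was A20 carrying TETact-v3, in which dCas9 with SunTag epitopes recruits the TET1 catalytic domain and MS2 aptamers in the sgRNA recruit p65-hsf1, together with a non-targeting sgRNA. The Cd4 sgRNA group carried the same system with an sgRNA against the Cd4 promoter. Transduced cells were taken on day 7 and had been enriched by sorting, so that lentiviral transduction, sorting and TETact-v3 itself cannot be told apart in any comparison with wild type.

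These families are classically high in the embryo, low in most adult tissues and high again in many tumours. LIN28 proteins bind precursors of the let-7 microRNAs and block their maturation, and let-7 in turn represses mRNAs of all 3 families through sites in their 3' UTRs. IGF2BP proteins bind mRNAs, many of them marked by m6A, and stabilise or localise them. HMGA proteins bind AT-rich DNA through AT-hooks and bend it for other factors. In blood, LIN28B, IGF2BP and HMGA2 belong to the programme that separates fetal from adult stem cells and B cell progenitors.

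The link between the families can be read in their sequences, and the let-7 microRNA is shown with sites of the members counted in A20 and of the members that were not. The mature RefSeq sequence is given 5' to 3' with the seed, bases 2 to 8, in capitals, and all 9 mouse let-7 family members examined (8 named let-7 and miR-98) share it. In each site the capitals mark the 7 bases CTACCTC, which pair with the seed, searched on the mRNA strand only in the longest GENCODE 3' UTR of each gene.
mmu-let-7a-5p: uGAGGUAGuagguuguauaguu
Igf2bp3 site 1: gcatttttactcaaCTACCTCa
Igf2bp2 site 1: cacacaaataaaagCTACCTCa
Hmga1 site 1: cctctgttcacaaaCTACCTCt
Hmga2 site 1: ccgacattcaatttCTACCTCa
Lin28b site 1: cccgggcgggaagtCTACCTCa
Lin28a site 1: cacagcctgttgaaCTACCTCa

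Every member held at least 1 match. Igf2bp1, Lin28b and Hmga2 held 4 each, Lin28a held 2, and Igf2bp2, Igf2bp3 and Hmga1 held 1 each. Over all 21020 genes with an annotated 3' UTR, 9.03% held a match. Longer UTRs hold more by their length alone, so each member was set beside genes whose UTR was within 10% of its own. For Hmga2, 0.0899% of 1112 such genes held as many matches, whereas for Igf2bp3, with its single match 548 bases after the stop codon, 14.3% of 1381 genes did. The members were known let-7 targets when chosen, and a match does not show that a site is used.

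**Figure D1:**
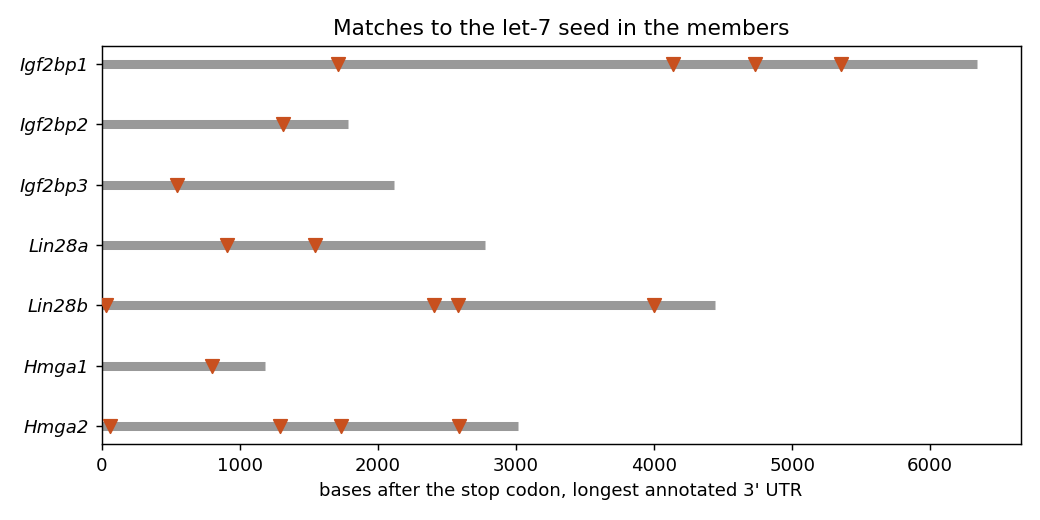
Each grey bar is the longest annotated 3' UTR of a member, in bases after the stop codon, and each triangle is a match to the let-7 seed. The 3 members with 4 matches, Igf2bp1, Lin28b and Hmga2, were all too low to test in A20, as was Lin28a with 2. The 3 tested members have 1 match each and also the shortest UTRs, from 1183 to 2119 bases. A link between matches and level was not tested.

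Promoters were examined because TET1 acts on methylated CpG. RefSeq windows of GRCm38.p6 covered 6 of the 7 members, and the 250 bases before the transcript start of each window were used. For Igf2bp2, Hmga2 and the first window of Hmga1 this start was the end of the annotated gene. For Igf2bp3 and Lin28a the start lay 0.515 and 0.38 kb inside the gene. It lay 16.1 kb inside for Lin28b and 0.03 kb inside for the second window of Hmga1. These windows thus precede an internal start that need not be the one used. Windows of 3 genes are shown, 5' to 3' on the gene's strand with every CpG in capitals, to contrast the members that were counted with one that was not.
Igf2bp3 promoter, chr6:49214955-49215204, minus strand: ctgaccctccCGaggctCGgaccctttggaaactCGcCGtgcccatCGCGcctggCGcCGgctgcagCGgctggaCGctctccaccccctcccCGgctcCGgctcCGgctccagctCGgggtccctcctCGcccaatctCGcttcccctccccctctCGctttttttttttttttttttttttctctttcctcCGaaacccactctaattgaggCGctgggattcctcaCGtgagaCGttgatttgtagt
Igf2bp2 promoter, chr16:22163300-22163549, minus strand: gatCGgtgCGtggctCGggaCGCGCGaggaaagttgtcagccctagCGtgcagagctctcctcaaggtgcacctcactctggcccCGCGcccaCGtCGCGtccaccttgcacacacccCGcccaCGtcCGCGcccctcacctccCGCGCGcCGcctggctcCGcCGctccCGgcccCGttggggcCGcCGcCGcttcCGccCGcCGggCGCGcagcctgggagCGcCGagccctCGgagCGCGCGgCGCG
Hmga2 promoter, chr10:120476470-120476719, minus strand: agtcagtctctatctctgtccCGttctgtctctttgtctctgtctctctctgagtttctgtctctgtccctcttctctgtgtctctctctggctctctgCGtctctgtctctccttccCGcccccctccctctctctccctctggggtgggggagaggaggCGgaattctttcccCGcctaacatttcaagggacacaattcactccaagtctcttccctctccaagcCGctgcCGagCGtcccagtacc

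The Igf2bp3 window held 21 CpG with an observed over expected ratio of 1.00, and the Igf2bp2 window held 40. The 2 Hmga1 windows, which overlap, held 34 and 35. Lin28a, Lin28b and Hmga2 held 7, 6 and 8, near the median of 6 over 32851 promoter windows. Of all windows, 16.4% held at least as many CpG as that of Igf2bp3 and 1.31% as many as that of Igf2bp2. Methylation was not analysed here. The study measured it by EM-seq in the same kinds of cells. It found no significant region genome-wide, from which the paper proposes that off-target demethylation was not substantial at that scale. A look at promoters alone gave changes between non-transduced A20 and control TETact cells. Whether any member was among them, and in which direction, was not examined here.

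Libraries held between 23194920 and 121623410 counts, and a count of 3, taken as the floor, was worth between 0.0270 and 0.140 CPM, counts scaled to a common library size by TMM. Cd4, the target, stood at 929.0 ± 22.4 CPM (SD, n = 2) in Cd4 sgRNA cells and at 0.795 ± 0.0016 CPM in wild type (SD, n = 2), as the labels say. The replicates differed by more than counting noise in each group, at a chi-square divided by its degrees of freedom of 7.84 in wild type, 6.82 in Cd4 sgRNA and 242.8 in control sgRNA cells, the most deeply sequenced group. All 10 B cell markers examined were counted above the floor in every library, with summed levels from 7671 to 7728 CPM in wild type, 4879 to 7646 in control sgRNA and 4137 to 4685 in Cd4 sgRNA cells. The 6 fibroblast or stroma markers summed to between 1.16 and 1.17 CPM in wild type, 5.37 and 10.05 CPM in control sgRNA and 1.43 and 1.60 CPM in Cd4 sgRNA cells, with 3, 2 and 2 of them at 0. The 8 myeloid markers summed to between 238.6 and 240.6, 253.4 and 301.1, and 233.9 and 234.3 CPM in the same order. T cell and pluripotent or germ cell markers summed to at most 1.57 CPM in any library. Mitochondrial genes took between 2.65% and 2.69% of the counts in wild type and between 5.96% and 11.5% in the TETact-v3 libraries, and the part of this or of any of these markers in the differences from wild type was not tested.

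Levels of different genes were compared as RPKM, the CPM per kilobase of the gene length in the files. Hmga1 was the highest member in all 6 libraries, at 88.0 ± 3.05 RPKM in wild type (SD, n = 2). Igf2bp3 followed at 3.22 ± 0.025 RPKM and Igf2bp2 at 0.411 ± 0.012 RPKM in the same cells (SD, n = 2). The other 4 members were at or near the floor. Igf2bp1 was counted 0 times in both wild-type libraries, 7 and 0 times in control sgRNA and 1 and 10 times in Cd4 sgRNA cells. Lin28a had 1 count in 1 control sgRNA library and Lin28b had none in any library, so that neither LIN28 gene was detectable at this depth. Hmga2 had between 1 and 4 counts in every library. These 4 did not pass the filter on low counts, which leaves 3 of 7 members with a test.

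**Figure D2:**
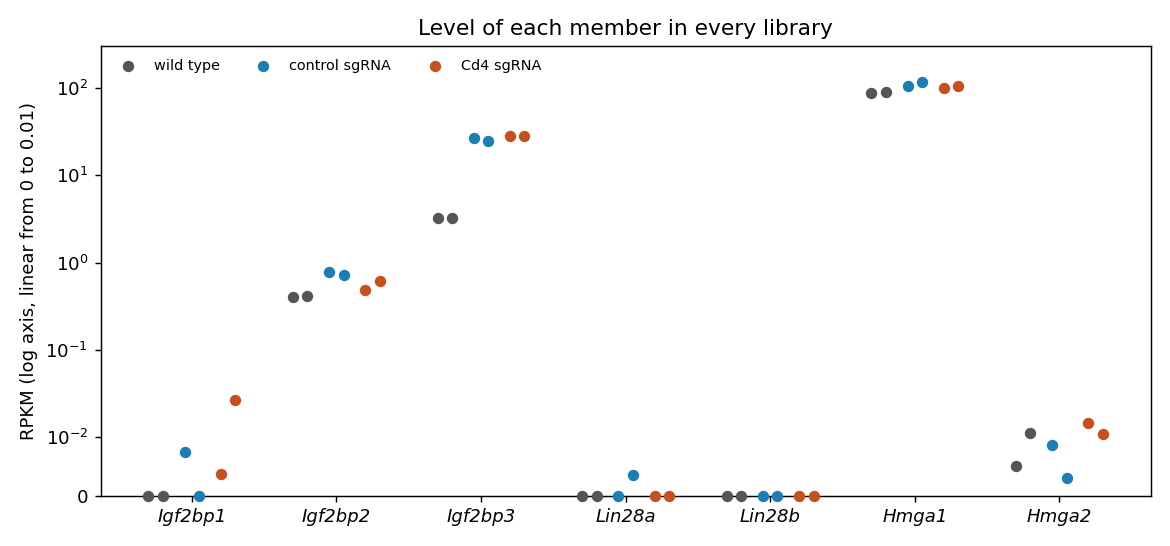
Points are the RPKM of each member in each of the 6 libraries, on a log axis that is linear from 0 to 0.01. Hmga1, Igf2bp3 and Igf2bp2 stand apart from the other 4 members, and Igf2bp3 is higher in the 4 TETact-v3 libraries than in wild type.

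Igf2bp3 (Entrez gene 140488, chromosome 6 of GRCm38 from 49085218 to 49215469) was at 13.9 and 14.1 CPM in the wild-type libraries, 114.9 and 107.8 CPM in control sgRNA and 122.2 and 122.5 CPM in Cd4 sgRNA cells. The 4 TETact-v3 libraries lay close together and far above both wild-type libraries. Its change was 2.99 (SE 0.091) on the log2 scale in control sgRNA and 3.13 (SE 0.092) in Cd4 sgRNA cells, where SE is the standard error of the fit, or 7.97-fold and 8.75-fold, and these values chose the gene. By the size of the log2 fold change it ranked 217 and 152 among 12430 genes tested. The 2 comparisons share the wild-type libraries. Between the sgRNAs, which the choice did not use, Igf2bp3 differed by 0.14 on the log2 scale (95% interval from -0.059 to 0.33, adjusted p = 0.315 in edgeR), Cd4 sgRNA against control sgRNA.

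With this the make-up of the IGF2BP family changed. Igf2bp3 accounted for 88.5% and 88.8% of the summed Igf2bp RPKM in the wild-type libraries and for 97.1% to 98.3% in the TETact-v3 libraries. The sum was 3.60 and 3.65 RPKM in wild type and between 25.5 and 28.8 RPKM in TETact-v3 cells. These shares follow from the values that chose Igf2bp3.

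Igf2bp2 (chromosome 16, 22059009 to 22163299) is the family member most widely kept in adult tissues. It was at 1.57 and 1.64 CPM in wild type, 3.06 and 2.78 CPM in control sgRNA and 1.89 and 2.37 CPM in Cd4 sgRNA cells. Control sgRNA libraries were above all others, but how many genes separate the groups in this way was not counted. Against wild type it was higher by 0.88 on the log2 scale in control sgRNA cells (SE 0.22, adjusted p = 0.0292 in edgeR). In Cd4 sgRNA against wild type it was 0.44 (95% interval from -0.16 to 1.03, adjusted p = 0.244 in edgeR), and Cd4 sgRNA against control sgRNA gave -0.44 (95% interval from -0.91 to 0.031, adjusted p = 0.219). The call in control sgRNA cells was lost in edgeR without either wild-type library, at adjusted p = 0.247 and 0.151 without replicates 1 and 2, and without either Cd4 sgRNA library, at 0.0757 and 0.0758. It was also lost in a fit of these 2 groups alone, at 0.0723. Cd4 sgRNA against control sgRNA was -0.50 without control sgRNA replicate 2, where it passed beside far more genes of any kind. Without Cd4 sgRNA replicate 2 the difference of Cd4 sgRNA from wild type was 0.25. The size of the control sgRNA difference from wild type moved little, from 0.83 to 0.94 over 17 alternatives.

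Hmga1 (chromosome 17, 27556574 to 27563672), an abundant AT-hook protein of dividing cells, was at 175.5 and 184.4 CPM in wild type, 215.9 and 236.3 CPM in control sgRNA and 204.0 and 212.9 CPM in Cd4 sgRNA cells. The wild-type libraries were the lowest, and the TETact-v3 groups nearly met, at 212.9 CPM in Cd4 sgRNA and 215.9 CPM in control sgRNA cells. How many genes separate the groups in this way was not counted. On the log2 scale the difference was 0.33 in control sgRNA against wild type (SE 0.089, adjusted p = 0.0388 in edgeR), 0.21 in Cd4 sgRNA against wild type (95% interval from -0.0034 to 0.43, adjusted p = 0.138) and -0.12 between the sgRNAs (95% interval from -0.33 to 0.098, adjusted p = 0.416). The call in control sgRNA cells was lost without either wild-type library (adjusted p = 0.249 and 0.166 in edgeR) or either Cd4 sgRNA library (0.114 in both), in the 2 groups alone (0.110) and with the replicate number as a block (0.0530). The Cd4 sgRNA difference from wild type was 0.24 and 0.22 without control sgRNA replicates 1 and 2, and passed in both fits. These fits called far more genes of any kind than the fit of all 6 libraries. In the 2 groups alone it was 0.21 (adjusted p = 0.00115 in edgeR), beside 3766 genes called higher and 3685 lower of 12052. Between the sgRNAs the differences were -0.18 for Hmga1 and 0.19 for Igf2bp3 without control sgRNA replicate 1. Both passed there, beside far more genes of any kind than in the fit of all 6 libraries. Without control sgRNA replicate 2 these differences were -0.051 for Hmga1 and 0.089 for Igf2bp3.

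Hmga1 has a near-identical copy, the single-exon gene Hmga1b on chromosome 11, which was counted more often than Hmga1. Of the 1561 distinct 66-base stretches in Hmga1b transcripts, 85.8% are also in Hmga1 transcripts, so that reads of this length could be split between them. Hmga1 took between 21.4% and 23.0% of the counts of the pair in every library. Summed, the pair stood at 819.8 and 838.2 CPM in wild type, 939.0 and 1051 CPM in control sgRNA and 927.9 and 945.8 CPM in Cd4 sgRNA cells. The sum differed by 0.26 on the log2 scale in control sgRNA against wild type, with adjusted p = 0.0798 in edgeR, so that the call on Hmga1 did not hold for the pair.

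**Figure D3:**
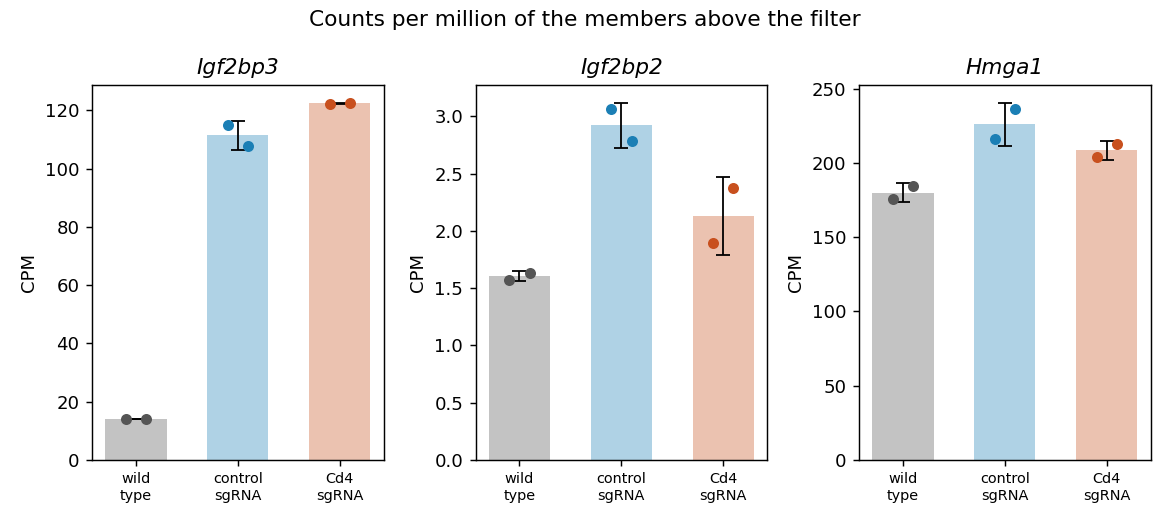
Bars are group means in CPM, error bars are the SD of 2 replicates and points are libraries, each axis starting at 0. Igf2bp3 is near 14 CPM in wild type and above 100 CPM in all TETact-v3 libraries, while Igf2bp2 and Hmga1 differ much less.

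Leaving out Igf2bp3, both of the 2 testable members of the other 6 were called higher in control sgRNA cells, where 14.5% of all tested genes were called higher and 28% in either direction. Neither was called in Cd4 sgRNA cells, where 9.84% of all genes were called higher and 20.5% in either direction. This fit shares 1 spread per gene across groups of unequal replicate noise. In the 2 groups alone neither member was called in control sgRNA cells, beside 835 genes higher and 734 lower of 12616. Hmga1 was called in Cd4 sgRNA cells there (adjusted p = 0.00115 in edgeR), beside 3766 higher and 3685 lower of 12052. The contrast between the groups thus depends on the fit. None of the 3 tested members was called between the sgRNAs in edgeR, beside 0.0724% of all genes, 0.0241% higher and 0.0483% lower. None of them had an unadjusted p under 0.05, beside 24.9% of all genes, and DESeq2 called none of them, beside 11.5% of all genes. A test of 2 libraries against 2 by permutation cannot go below p = 0.333, so the calls rest on the model.

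The neighbours of Igf2bp3 were examined as the same chromosome segment. Malsu1, a mitochondrial ribosome assembly factor on the opposite strand, overlaps Igf2bp3 by 1529 exon bases (chromosome 6, 49085223 to 49086751), which are 18.7% of the Igf2bp3 exon bases in GENCODE. The gene lengths used in counting were shorter, 4347 bases for Igf2bp3 and 785 for Malsu1, so the counted exons cannot share all of this overlap. How much they share was not examined, and whether reads were counted by strand is unknown. Reads from any shared stretch cannot be assigned to either gene with certainty. Malsu1 was at 35.4 ± 1.57 CPM in wild type, 37.2 ± 3.48 in control sgRNA and 34.1 ± 1.09 in Cd4 sgRNA cells (SD, n = 2). Its log2 fold change was 0.07 and -0.05 against wild type in control sgRNA and Cd4 sgRNA cells (adjusted p = 0.628 and 0.759 in edgeR). Without control sgRNA replicate 1 Malsu1 was 0.19 in control sgRNA cells and passed, beside far more genes of any kind. Without replicate 2 it was -0.018. Tra2a, a splicing factor 28.4 kb away on the other side, gave -0.38 and -0.20 (adjusted p = 0.133 and 0.417 in edgeR). Its value in control sgRNA cells was -0.61 without control sgRNA replicate 1, where it passed, and -0.16 without replicate 2. In Cd4 sgRNA cells Tra2a was -0.17 and -0.20 without control sgRNA replicates 1 and 2 and passed in both fits. All these fits called far more genes of any kind. In the 2 groups alone Tra2a passed in Cd4 sgRNA cells (adjusted p = 0.00442 in edgeR), and without wild-type replicate 2 it was -0.087. Gm7932, 219.1 kb away, gave 1.83 and 2.41 in control sgRNA and Cd4 sgRNA cells (adjusted p = 0.115 and 0.0706 in edgeR) and was not called. In the 2 groups alone Gm7932 passed in Cd4 sgRNA cells (adjusted p = 0.00191 in edgeR). That fit called 3766 genes higher and 3685 lower of 12052. Without control sgRNA replicates 1 and 2 Gm7932 was 2.43 and 2.41 in Cd4 sgRNA cells, and 1.07 and 2.23 in control sgRNA cells.

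**Figure D4:**
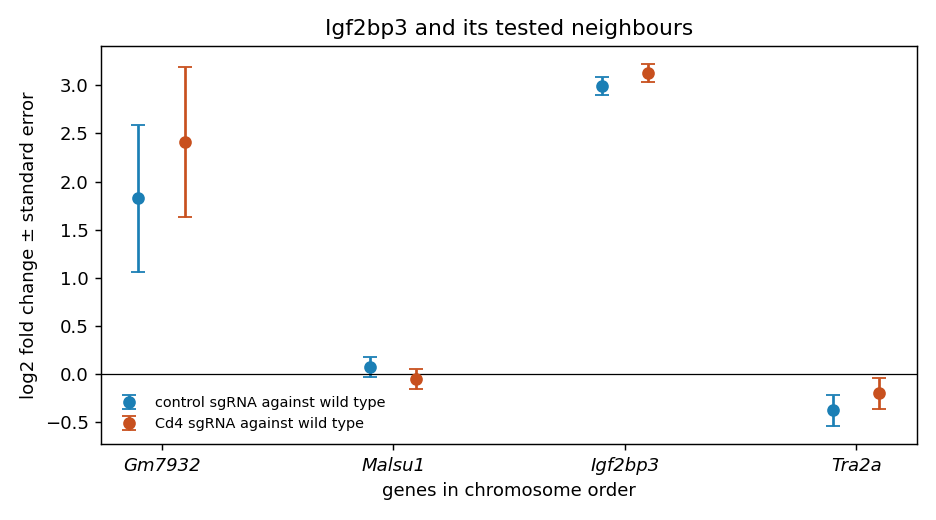
Points are log2 fold changes against wild type with their standard errors for Igf2bp3 and its tested neighbours in chromosome order. Igf2bp3 is near 3 in both groups, Malsu1 and Tra2a lie between -0.38 and 0.07, and Gm7932, with at most 47 counts in any library, has wide errors.

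Around the other members, AI413582, 0.097 kb from Hmga1, was called higher in control sgRNA cells, by 0.94 on the log2 scale (SE 0.26, adjusted p = 0.0407 in edgeR) and was 0.31 in Cd4 sgRNA cells (adjusted p = 0.455). That call was lost in edgeR without wild-type replicate 1 or 2 (adjusted p = 0.227 and 0.168), without Cd4 sgRNA replicate 1 or 2 (0.0875 and 0.0876) in the 2 groups alone (0.0857) and with voomLmFit of limma (0.0791). Without control sgRNA replicate 2 the difference was 0.59. AI413582 in Cd4 sgRNA cells was 0.34 without control sgRNA replicate 1, where it passed beside far more genes of any kind. Msrb3, a methionine sulfoxide reductase 304.6 kb from Hmga2, was called higher in both groups (log2 fold change 2.81 and 3.37, adjusted p = 0.00692 and 0.00625 in edgeR), while Hmga2 stayed at 4 counts or fewer. The Msrb3 calls were lost in edgeR without wild-type replicate 1 (adjusted p = 0.129 and 0.127) or 2 (0.061 and 0.0588), and that in Cd4 sgRNA cells also without Cd4 sgRNA replicate 1 or 2 (0.0587 and 0.0567).

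The genes whose profile over the 6 libraries was most like that of Igf2bp3, by the root mean square difference of centred log2 CPM, were Gsta4 (0.156), Hs3st3b1 (0.169), Cyb561 (0.176), Grb7 (0.177) and Zc4h2 (0.196), against a median of 1.46 over all tested genes. Gsta4, a glutathione transferase, was at 14.3 CPM in both wild-type libraries and between 129.8 and 147.6 CPM in TETact-v3 cells. Grb7, a signalling adaptor, ranged from 5.27 to 6.40 CPM in wild type and from 38.2 to 41.0 CPM in TETact-v3 cells. Zc4h2 was at 0 counts in wild type and at most 0.351 CPM elsewhere, so that its likeness is set by the prior count of 2 in the log2 CPM.

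Genes of the pathways around the members were described by lists. Counts and calls in these lists are those of the fit of all 6 libraries, and they rested on each wild-type library. Of the 34 calls on list genes picked by p-value, none was kept in edgeR without wild-type replicate 1, 2 (Tgfbr1 and Alkbh5 in control sgRNA cells) without wild-type replicate 2, 14 and 13 without Cd4 sgRNA replicates 1 and 2, and all 34 without either control sgRNA library. Beside each list's count stands the background over all genes, which was 14.5% called higher and 13.5% called lower in control sgRNA against wild type, and 9.84% and 10.7% in Cd4 sgRNA against wild type. Over all genes the median log2 fold change against wild type was close to 0, at -0.00095 and 0.0043 in control sgRNA and Cd4 sgRNA cells.

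Of 20 tested genes of microRNA and let-7 processing, 2 rose and 4 fell in control sgRNA cells, with a median log2 fold change of -0.079. In Cd4 sgRNA cells 1 was higher and 5 lower, with a median of 0.071. All genes called in either direction made up 28% and 20.5%. Tut4, which adds uridines to let-7 precursors bound by LIN28A, rose by 0.58 and 0.55 in control sgRNA and Cd4 sgRNA cells (log2, adjusted p = 0.0118 and 0.0186 in edgeR). Hnrnpa1, which binds let-7 precursors, changed by -0.57 and -0.68 on the log2 scale (adjusted p = 0.00611 and 0.0059 in edgeR), and Ago3, an Argonaute protein, changed by -1.07 and -0.90 (log2, adjusted p = 0.0054 and 0.0144). Ddx17, a Microprocessor helicase, fell from 411.5 ± 3.01 CPM in wild type to 274.2 ± 29.0 in control sgRNA and 254.5 ± 8.84 in Cd4 sgRNA cells (SD, n = 2).

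Of 17 tested let-7 targets outside the 3 families, 4 rose and 3 fell in control sgRNA cells (median 0.19 on the log2 scale), beside 28% of all genes in either direction, and 3 were higher and 5 lower in Cd4 sgRNA cells (median -0.12), beside 20.5%. Myc, the growth regulator, fell from 185.5 ± 3.75 CPM in wild type to 79.7 ± 18.4 in control sgRNA and 80.5 ± 2.17 in Cd4 sgRNA cells (SD, n = 2, adjusted p = 0.0048 and 0.00753 in edgeR). The TGF-beta receptor Tgfbr1 changed by -1.15 and -0.99 and the transcription factor Arid3a by -0.74 and -0.69 on the log2 scale (adjusted p between 0.00248 and 0.00922 in edgeR). Ccnd2, a D-type cyclin, was called higher in both groups at very low levels, 0.0234 ± 0.033 CPM in wild type against 0.738 ± 0.127 and 1.33 ± 0.227 CPM (SD, n = 2).

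Of 14 tested IGF2BP client mRNAs, 2 were higher and 2 lower in each TETact-v3 group, beside 28% and 20.5% of all genes in either direction, with medians of -0.012 and -0.12 on the log2 scale. The control sgRNA share is near the background. Myc and the adhesion receptor Cd44 were the lower ones in both groups, Cd44 from 0.811 ± 0.223 CPM in wild type to 0.136 ± 0.052 and 0.186 ± 0.039 CPM (SD, n = 2). Among the higher ones were the cell cycle kinase Cdk6 in control sgRNA cells, at 0.43 on the log2 scale (adjusted p = 0.0372 in edgeR, 0.0603 with the block and 0.0942 in the 2 groups alone), and the survival factor Bcl2 in Cd4 sgRNA cells, at 0.91 (adjusted p = 0.0451 in edgeR, 0.0685 with the block and 0.0584 with voomLmFit). Igf2, the mRNA that gave the family its name, had 1 count in each wild-type library and at most 23 in any library, and was not tested.

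Of 21 tested partner proteins and m6A factors, 3 rose and none fell in control sgRNA cells, and 1 was higher in Cd4 sgRNA cells, beside 14.5% and 9.84% of all genes called higher, so that neither share exceeded the background. Alkbh5, an m6A eraser, rose from 277.4 ± 6.34 to 552.0 ± 76.2 CPM in control sgRNA cells (SD, n = 2, adjusted p = 0.00345 in edgeR). Virma, a subunit of the m6A writer, rose in both groups by 0.33 and 0.37 on the log2 scale (adjusted p = 0.0263 and 0.0254), and the reader Ythdc2 rose by 0.59 in control sgRNA cells (adjusted p = 0.00998). The other readers and writers did not pass the test in either group. The Virma calls were lost with the replicate number as a block, at 0.0520 and 0.0504.

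Of 11 other high mobility group genes, 1 was higher and 2 lower in each group, beside 28% and 20.5% of all genes in either direction. Hmgxb3 rose from 62.7 ± 0.041 CPM to 104.7 ± 4.53 in control sgRNA and 118.3 ± 2.45 in Cd4 sgRNA cells (SD, n = 2, adjusted p = 0.00303 and 0.00244 in edgeR), and Hmgb3 changed by -0.70 and -0.44 on the log2 scale (adjusted p = 0.00738 and 0.0372). Hmgn3 fell by 0.47 in control sgRNA cells (log2). With the block, the calls on Hmgb3 in Cd4 sgRNA cells (0.0544) and Hmgn3 (0.0602) were lost. Of 12 other oncofetal genes only 4 passed the filter on low counts. Of these, 1 was higher and 0 lower in each group, beside 28% and 20.5% of all genes in either direction. The median log2 fold change of the 4 was 0.0037 in control sgRNA and -0.33 in Cd4 sgRNA cells, and the lowest was -0.71 and -1.65. Afp was called higher in both groups at low levels, from 0.154 ± 0.086 CPM in wild type to 0.660 ± 0.199 and 0.882 ± 0.255 CPM (SD, n = 2, adjusted p = 0.0478 and 0.0384 in edgeR). No gene of the 6 lists was called between the sgRNAs in edgeR, while DESeq2, which called 11.5% of all genes there, called some in 5 of them.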

How the data were processed

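RNA-seq counts from 6 A20 libraries were used. The authors mapped the 66 bp read pairs with Rsubread (mm10) and used featureCounts, and the deposited counts are whole numbers per Entrez gene, without normalization. Symbols and positions came from RefSeq GRCm38.p6 (25275 identifiers matched), and 3' UTRs from GENCODE M21. After the study's gene filters, applied where this annotation had the classes, filterByExpr left 12430 genes, and libraries were scaled by TMM.

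All 6 libraries were fitted with edgeR 4.0.16 (glmQLFit and glmQLFTest, robust, two-sided, Benjamini-Hochberg adjustment at 0.05) in R 4.3.3. The study used voomLmFit. The quasi-likelihood method was chosen after calls had been seen: the package default (legacy) was run first, 5 settings were then compared on their calls, and the newer method (legacy = FALSE) was taken because it matched the call counts of an earlier analysis of these data. Legacy called 1955 genes higher and 1693 lower in control sgRNA against wild type, the newer method 1807 and 1675, and the member calls were the same under both.

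Members and lists were chosen with earlier results of these data known. Named were the members, their neighbours within 500 kb, up to 4 genes per list and comparison by p-value, the 5 genes most like Igf2bp3, and Cd4; Hmga1b was added after its values were seen. Single values of 2 list genes are not reported here. Alternatives were voomLmFit (limma 3.58.1), DESeq2 1.42.0, RLE, library size only, other filters, 2 groups alone, a replicate block and each library left out. Replicates differed by more than counting noise (chi-square per degree of freedom 6.82 to 242.8). Nothing says that same-numbered libraries share a culture. The tests were tested on simulated counts.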

Additional observations from a re-analysis of the deposited data

How the results depend on the processing

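The gain of Igf2bp3 over wild type kept its direction and moved by less than the replicate spread under all 17 alternatives, from 2.97 to 3.04 on the log2 scale in control sgRNA and from 3.12 to 3.17 in Cd4 sgRNA cells. These values chose the gene and were judged by size alone. The calls on Igf2bp2 and Hmga1 were judged by adjusted p, so the 2 kinds of result cannot be ranked by stability. In control sgRNA against wild type their sizes kept direction, from 0.83 to 0.94 for Igf2bp2 and from 0.26 to 0.42 for Hmga1 (log2), but their calls did not hold throughout. Against 2 members called in control sgRNA against wild type, a fit of the 2 groups alone called 0, the replicate block 1, the summed Hmga1 and Hmga1b counts (chosen after seeing the data) 1, and fits without 1 library from 0 to 2. Against 0 in Cd4 sgRNA against wild type, the 2 groups alone called 1 and fits without 1 library from 0 to 2, among them Igf2bp1 on 0 wild-type counts. Against 0 between the sgRNAs, fits without 1 library called from 0 to 2. The 4 alternatives without a wild-type or Cd4 sgRNA library called fewer genes, down to 63 higher and 53 lower in control sgRNA against wild type without wild-type replicate 1, and those without a control sgRNA library called more, up to 4228 and 3989 without control sgRNA replicate 1. The cause was not tested. The members called in fits without a control sgRNA library stand beside this larger number of calls over all genes. In the 2 groups alone, Cd4 sgRNA against wild type called 3766 genes higher and 3685 lower of 12052, so the 1 member called there is no result about the members.

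The edgeR method was itself chosen after calls were seen, among 5 settings. With the legacy method, the package default run first, Igf2bp2 and Hmga1 were called in control sgRNA against wild type at adjusted p = 0.0313 and 0.0374, against 0.0292 and 0.0388 as reported, and the m6A list had 3 calls in Cd4 sgRNA cells in place of 1.

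The list counts moved most without 1 library. The number of calls over all genes moved in these fits too, so the ranges are no result about the lists. In control sgRNA against wild type they ranged from 0 to 14 for microRNA processing, 0 to 15 for let-7 targets, 0 to 12 for IGF2BP clients, 0 to 16 for m6A and partner proteins, 0 to 7 for high mobility group genes and 0 to 3 for oncofetal genes. In Cd4 sgRNA against wild type the ranges were 0 to 15, 0 to 14, 0 to 9, 0 to 14, 0 to 7 and 0 to 2, and between the sgRNAs 0 to 13, 0 to 13, 0 to 10, 0 to 15, 0 to 6 and 0 to 3, in the same order. In the 2 groups alone, control sgRNA against wild type gave 2 IGF2BP clients, 4 let-7 targets and 0 oncofetal genes. Over all 12616 genes that fit called 835 higher and 734 lower. Cd4 sgRNA against wild type gave 13, 14, 9, 14, 7 and 2 in the 2 groups alone. There 3766 of all 12052 genes were called higher and 3685 lower, so these counts stand beside a very high background. DESeq2 gave 10 microRNA processing genes in control sgRNA cells, 4 m6A and partner genes in Cd4 sgRNA cells, and between the sgRNAs 4, 1, 1, 1 and 1 for the first 5 lists. Of all 12430 genes DESeq2 called 2193 higher and 1955 lower in control sgRNA and 1737 and 1813 in Cd4 sgRNA against wild type. Between the sgRNAs it called 11.5%. The m6A list in Cd4 sgRNA cells had 3 calls with library size only and with the stricter filter, and 0 with the replicate block. Afp, the oncofetal call, was lost (0) in control sgRNA cells with voomLmFit, without the expression filter and with the block, and in Cd4 sgRNA cells with the block. It did not pass the stricter filter and was not tested there, which left 0 oncofetal calls in both groups. Malsu1 ranged from -0.018 to 0.19 in control sgRNA and from -0.085 to 0.017 in Cd4 sgRNA cells when 1 library was left out, turning sign without control sgRNA replicate 2 and without wild-type replicate 2.

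The replicate numbers did not pair the libraries, with correlations of deviations of 0.020, -0.032 and -0.137 between groups, and the block moved the calls in control sgRNA against wild type from 1807 higher and 1675 lower to 1550 and 1420. With the control sgRNA numbers crossed in the block, 1 gene was higher and 5 lower between the sgRNAs and 0 members were called. Depth limits Igf2bp1, Lin28a, Lin28b and Hmga2, whose counts, from 0 to at most 10 in any library, carry no comparison.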

Other observations

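A pseudogene named for a member, Hmga2-ps1 on chromosome 1 (176834624 to 176836133), was counted at least 70 times in every library, where Hmga2 itself had at most 4 counts, and was picked out after its values were seen. It was at 8.90 ± 0.373 CPM in wild type, 2.34 ± 0.970 CPM in control sgRNA and 2.44 ± 0.422 CPM in Cd4 sgRNA cells (SD, n = 2). Against wild type it differed by -1.96 and -1.86 on the log2 scale (SE 0.29 and 0.32, adjusted p = 0.00713 and 0.0151 in edgeR). It lies within the span of Sdccag8, so its counts can include reads of that gene, and this was not tested.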
